A study of Mus musculus with 4 samples.

Results

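The genes described here encode the enzymes that build cholesterol and fatty acids and the proteins that control them. They were followed in Langerhans cells, the dendritic cells of the epidermis, after dosing mice with the dioxin TCDD (2,3,7,8-tetrachlorodibenzo-p-dioxin), which activates the aryl hydrocarbon receptor (AhR). The members were a list of 34 genes chosen by pathway, and their probe sets were those that the platform annotation assigns to 1 of these symbols alone. By that rule 32 of the 34 genes had at least 1 probe set, out of 12393 genes so represented on the array. They carried 63 probe sets, 49 of which were bright enough to be tested. For each gene the probe set with the highest mean log2 signal was taken, which left 30 genes tested. Dhcr7 and Fasn lay below the filter, a mean log2 signal of 6.85 over the 4 arrays. The expression of Acat2 and Insig1 was not analysed here.

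The experiment comprised 4 Affymetrix arrays, each from 1 sample of Langerhans cells. Mice were treated in vivo with 100 µl containing either 10 µg TCDD or vehicle (an injection into the peritoneum, per the labels of the back skin samples), and cells were isolated 24 h later and sorted to 95% purity. Control 1 (DMSO and olive oil) and TCDD 1 carry labels without a skin site. Control 2 and TCDD 2 are labelled as back skin, and the 2 controls belong to different experiments. Nothing in the labels ties either TCDD sample to the experiment of a control, so samples were paired by the site label alone. Each pair is called a preparation below, and site and experiment cannot be told apart. The labels of control 2 contradict each other, since its title and description name a control while its treatment text names TCDD. It was used as a control. The back skin ratios rest on it and cannot be formed without it. The sources used here do not give strain, sex, age or pooling of the mice, so the spread between samples may be technical.

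Cholesterol is made from acetyl-CoA through mevalonate, farnesyl diphosphate, squalene and lanosterol. Fatty acids are made from the same acetyl-CoA and are then lengthened and desaturated. Both pathways are switched on by the SREBP transcription factors, which the escort protein SCAP carries from the endoplasmic reticulum to the Golgi when sterols are scarce. INSIG proteins hold SCAP back when sterols are plentiful. SREBPs bind sterol regulatory elements close to the gene start, usually together with NF-Y, which binds CCAAT boxes, and Sp1.

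The start regions of Hmgcs1, Idi1, Lss and Cyp51 are shown as examples and were not picked by a rule. In the brightest probe set of each, control 1 and TCDD 2 were above the other 2 arrays (values below). This order was seen in 15 of the 30 tested genes. Mvd, Msmo1, Srebf1, Srebf2, Acly and Elovl5 also had it, and their windows are not shown. Each window runs from 250 bases before to 50 bases after the gene start in RefSeq (GRCm38.p6) and is written 5′ to 3′ on the strand of the gene. Capitals mark CCAAT and the sterol element core TCACNCCAC on either strand. Hmgcs1 lies at chr13:119690101-119690400 (+ strand), Idi1 at chr13:8885356-8885655 (+ strand), Lss at chr10:76531355-76531654 (+ strand) and Cyp51 at chr5:4104648-4104947 (- strand).
Hmgcs1: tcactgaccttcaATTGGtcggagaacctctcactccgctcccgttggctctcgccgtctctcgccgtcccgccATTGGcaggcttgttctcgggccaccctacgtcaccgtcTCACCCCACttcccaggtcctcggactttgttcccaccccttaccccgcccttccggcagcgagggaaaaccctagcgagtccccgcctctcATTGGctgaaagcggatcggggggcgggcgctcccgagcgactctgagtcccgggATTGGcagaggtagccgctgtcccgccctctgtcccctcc
Idi1: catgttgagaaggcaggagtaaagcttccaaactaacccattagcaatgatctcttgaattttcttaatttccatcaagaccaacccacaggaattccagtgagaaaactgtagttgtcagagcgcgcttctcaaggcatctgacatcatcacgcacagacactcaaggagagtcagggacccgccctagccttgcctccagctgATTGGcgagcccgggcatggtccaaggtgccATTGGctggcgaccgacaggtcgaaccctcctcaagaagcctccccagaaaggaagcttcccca
Lss: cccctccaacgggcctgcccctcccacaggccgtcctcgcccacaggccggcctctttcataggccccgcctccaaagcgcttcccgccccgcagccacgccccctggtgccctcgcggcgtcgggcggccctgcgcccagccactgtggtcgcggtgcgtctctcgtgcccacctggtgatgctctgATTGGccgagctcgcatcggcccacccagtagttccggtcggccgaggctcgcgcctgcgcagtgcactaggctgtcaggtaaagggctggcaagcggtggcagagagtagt
Cyp51: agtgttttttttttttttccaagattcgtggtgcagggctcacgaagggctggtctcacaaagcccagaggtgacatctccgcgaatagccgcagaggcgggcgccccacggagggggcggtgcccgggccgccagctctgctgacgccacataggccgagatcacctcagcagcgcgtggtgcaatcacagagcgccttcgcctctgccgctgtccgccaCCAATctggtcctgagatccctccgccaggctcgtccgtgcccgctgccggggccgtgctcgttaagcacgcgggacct

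Hmgcs1 held 1 sterol element core, whose first base lies at -137 from the gene start, and 4 CCAAT boxes. Idi1 held 2 CCAAT boxes and Lss and Cyp51 held 1 each. RefSeq windows were found for 27 of the 34 genes, 35 windows in all, some of which overlap within a gene. CCAAT occurred on either strand in 65.7% of these windows, against 37.4% of all 32851 mouse windows of this length. The Sp1 motif GGGCGG occurred in 74.3% against 35.7%, and the AhR element core GCGTG in 57.1% against 32.4%. The sterol element core TCACNCCAC occurred in 1 of the 35 windows (2.86%) and in 1.24% of all windows. Other forms of the element were not searched for, so a window without this core may still hold one. GCGTG was present at 1 place each in Idi1 and Lss, at 2 places in Cyp51 and absent from the Hmgcs1 window. These are matches of letters in a short window and describe no binding.

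The arrays differed in RNA quality and in the markers of other cells. For the actin controls the 3′ signal exceeded the 5′ signal 49.7-fold in control 1, but 3.48-fold in TCDD 1, 4.64-fold in control 2 and 7.71-fold in TCDD 2. For the Gapdh controls the ratios were 106.8, 9.55, 11.9 and 15.9 in the same order of arrays. Control 1 and TCDD 2 thus had the higher ratios for both controls. The array medians lay between 164.9 and 188.2. All 10 Langerhans cell markers were above the filter, and their summed signal was 54888 (control 1), 64447 (TCDD 1), 77005 (control 2) and 69749 (TCDD 2). Of the 10, Cd207 and Cdh1 were lower on control 1 and TCDD 2 than on both other arrays, near the share of all genes tested (21.8%). Cd207, which encodes langerin, read 2120 and 2155 there, against 5343 and 7211. The same held for 7 of 8 measured T cell markers, none listed at 0, whose sums were 799.8 and 791.2 against 1525 and 2264. The 10 keratinocyte markers were mixed. On control 1 and TCDD 2, 4 were higher than on both other arrays (19.4% of all genes tested), Lor and Dsp among them. Another 3 (Perp, Krt15 and Trp63) were lower there (21.8%). The sums were 1802 and 2126 on control 1 and TCDD 2, against 1592 and 1574. They rest largely on the 2 brightest markers, Lor (678.4 and 772, against 407 and 479.1) and Dsp (464.1 and 381.3, against 360.8 and 159.9). Sums of sebaceous gland markers (7 measured) lay between 1554 and 1767 and those of adipocyte markers (8 measured) between 531.3 and 782.7, with Adipoq, the adipocyte hormone adiponectin, at 55.9 or less. Of the 8 adipocyte markers 2 were lower on control 1 and TCDD 2 than on both other arrays, against 21.8% of all genes tested. Retn was 1 of them, at 100.1 and 28.9 against 254.3 and 265.3. In bulk RNA, fewer cells of a type and less RNA per cell cannot be told apart.

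The first comparison asked which synthesis genes differ between Langerhans cells of TCDD-treated and control mice. None did by the test: 0 of the 49 member probe sets passed (limma, smallest adjusted p = 0.9999), as did 0.0% of all 13576 probe sets tested. At an unadjusted p under 0.05 there was 1 member probe set, that of Fdps, against 1.47% of all probe sets. The median log2 difference, TCDD minus control, was 0.09 over the 30 genes and -0.03 over all 8413 genes tested. Leaving out control 1 or TCDD 1 gave 0.19 or 0.24, whereas leaving out control 2 or TCDD 2 turned it to -0.03 or -0.06. The TCDD fits with an array left out, here and below, hold no preparation term, so the difference between preparations enters them. The standard errors of the 30 genes ranged from 0.32 to 0.53 and had a median of 0.35. These are the moderated errors of limma, which borrow from the variance of the other probe sets. All ± values below are of this kind and do not give the spread of a gene's own arrays. Both TCDD arrays lay above both controls for 4 of 30 genes (Mvk, Fdps, Hsd17b7 and Fads2), against 11.4% of all genes. Both lay below for 1 (Elovl6), against 14.1%.

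**Figure D1:**
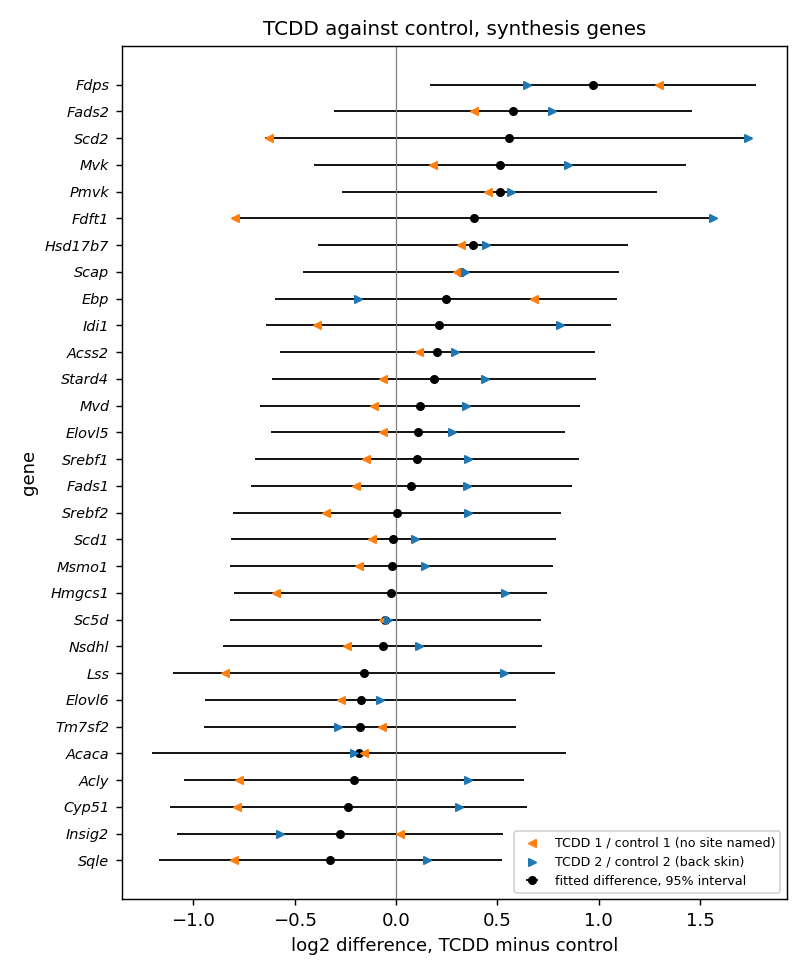
The horizontal axis gives the log2 difference TCDD minus control for each of the 30 tested synthesis genes, with black points for the fit over 4 arrays and bars for its 95% interval, and triangles for the ratio in each preparation. The interval of Fdps alone (0.17 to 1.78, not adjusted for the number of genes) lies above 0. For 19 of the 30 genes the 2 triangles fall on opposite sides of 0. Opposite signs were also frequent among all genes: 27.9% were lower with no site named and higher in back skin, and 31.3% were the reverse.

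Opposite ratios in the 2 preparations were frequent among all genes tested, and the synthesis genes fell mostly into 1 of the 2 opposite orders. In 17 of 30 genes the signal was lower on TCDD 1 than on control 1 and higher on TCDD 2 than on control 2, against 27.9% of all genes; this is called the common order below. The reverse order was seen in 2 genes (Ebp and Insig2), against 31.3%. A further 7 were higher after TCDD in both preparations (17.9% of all genes) and 4 were lower in both (22.8%). In 15 of the 30 genes both control 1 and TCDD 2 exceeded both TCDD 1 and control 2, against 19.4% of all genes, and in 0 of 30 both lay below, against 21.8%. Control 2 was the lowest array for 15 genes (23.7% of all genes), TCDD 1 for 9 (21.4%), control 1 for 4 (29.2%) and TCDD 2 for 2 (25.8%). The highest array was TCDD 2 for 14 genes (20.6%), control 1 for 9 (30.2%), TCDD 1 for 4 (19.1%) and control 2 for 3 (30.1%). A ratio of at least 2-fold was seen with no site named for Fdps alone (6.53% of all genes) and in back skin for Scd2 and Fdft1 (5.42%). The median log2 ratio of TCDD to control was -0.14 where no site is named, while back skin gave 0.35; over all genes they were -0.01 and -0.05. Without control 2 only the first part of this order can be read: the signal was lower on TCDD 1 than on control 1 in 21 of 30 genes, against 50.7% of all genes. Each preparation holds 1 array per treatment, so these ratios have no error and the difference between them was not tested.

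Scaling moved these shares for the synthesis genes and for all genes alike. Centring each array on its median moved the median ratio of all genes to -0.14 where no site is named and to 0.07 in back skin. It then gave 20 of 30 genes in the common order, against 39.6% of all genes. Quantile normalization gave 18 of 30 against 33.2%. The 3′ to 5′ ratios of actin and Gapdh were also higher on control 1 and TCDD 2, the high arrays for 15 of 30 synthesis genes. Cd207 and 7 of 8 measured T cell markers were lower there than on both other arrays. The part of these differences in this pattern was not tested.

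**Figure D2:**
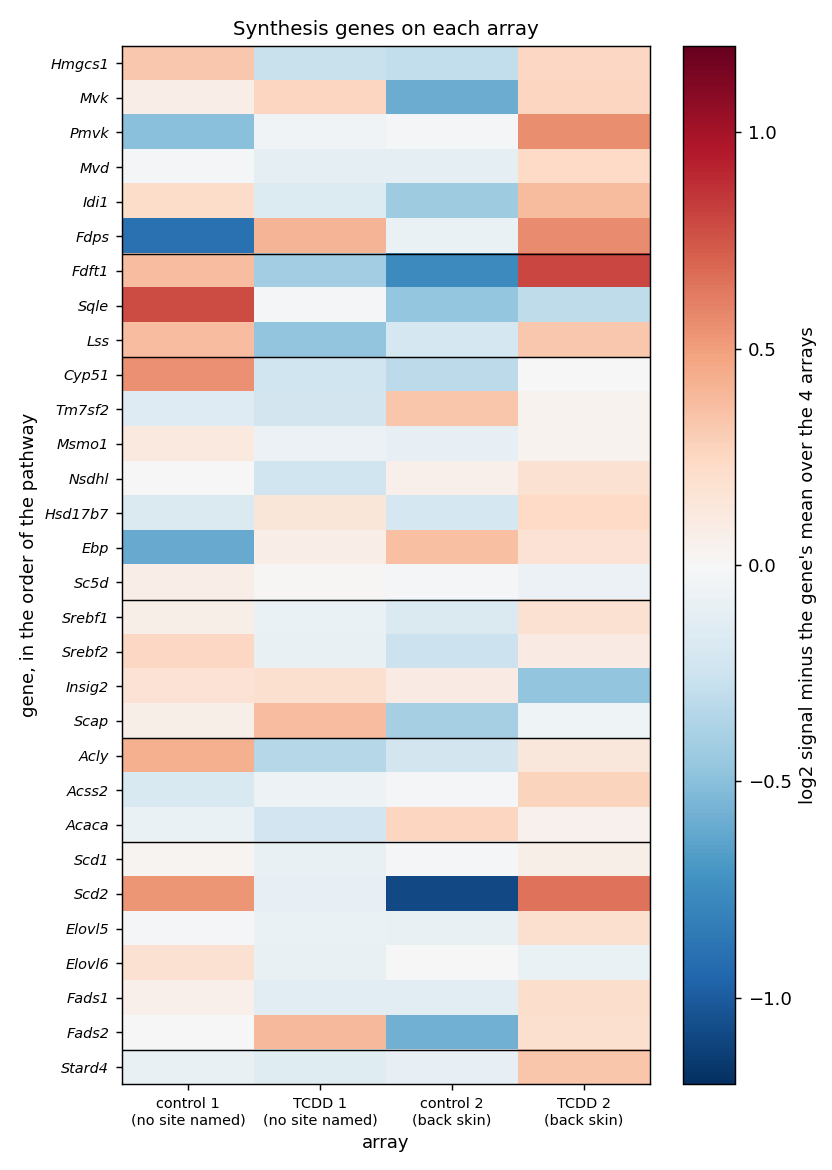
Each row is 1 tested synthesis gene in pathway order (black lines separate the functional groups), each column 1 array, and colour gives the log2 signal minus the gene's mean over the 4 arrays. Red cells collect under control 1 and TCDD 2 and blue cells under control 2, which was the lowest array for 15 of 30 genes; Fdps and Ebp were among the 4 that were lowest on control 1.

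**Figure D3:**
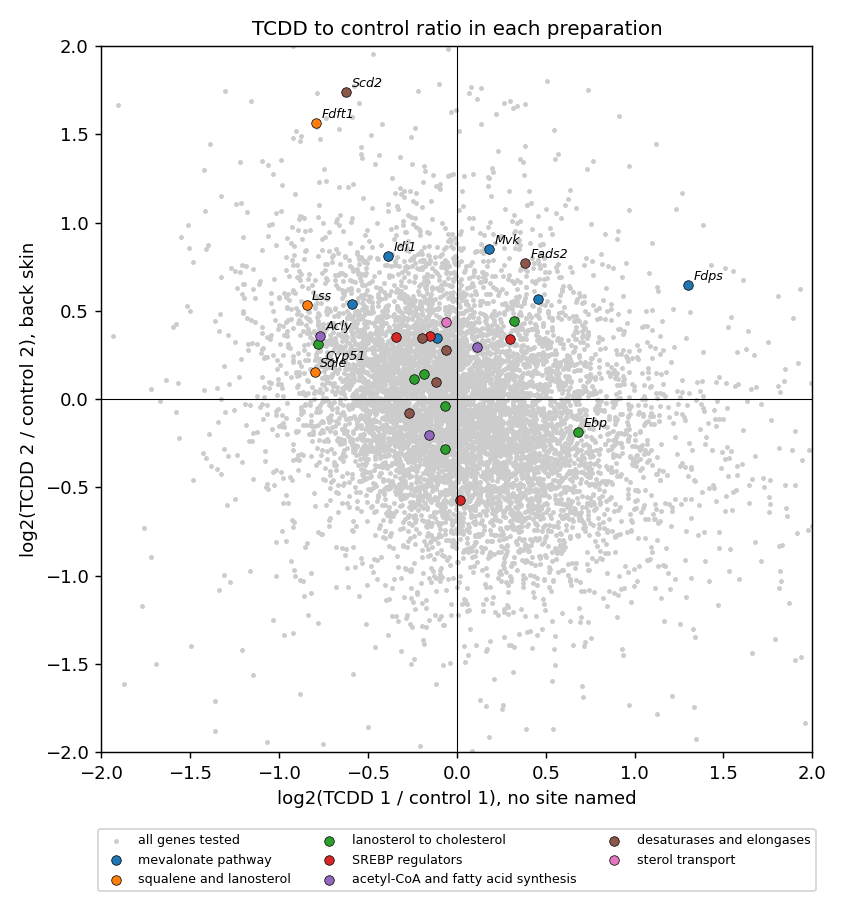
Each point is a gene, with its log2 TCDD to control ratio in the preparation with no site named on the horizontal axis and in back skin on the vertical axis, for all genes tested (grey, 101 of which lie beyond the axes) and for the 30 synthesis genes (coloured by role). The upper left area, the common order, holds 17 of the 30 (27.9% of all genes) and the lower right area 2 (31.3%).

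The mevalonate pathway begins with Hmgcs1, the cytosolic HMG-CoA synthase, and 6 of its 7 members were tested. Hmgcs1 read 17068 (control 1), 11334 (TCDD 1), 11164 (control 2) and 16233 (TCDD 2). Control 1 and TCDD 2 were thus the high arrays, the groups overlapped, and the log2 difference was -0.03 ± 0.34 (moderated SE, n = 2 per group). Its other 3 probe sets were all lower on control 2 than on control 1, but also lower on TCDD 2 than on TCDD 1. Their values on TCDD 1 and 2 were 3097 and 2626, 2473 and 1739, and 343.9 and 305.6. In none of them were control 1 and TCDD 2 the high arrays. The dimmest, which read 290.4 and 247.8 on controls 1 and 2, was higher after TCDD in both preparations. The others kept the common order.

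Mvk, mevalonate kinase, read 192.7 and 121.2 on controls 1 and 2 and 218.4 on both TCDD arrays. The TCDD arrays were higher than either control, by 0.52 ± 0.40 log2 units, a difference that did not pass (limma, adjusted p = 0.9999). Its other probe set lay below the filter, at 45.3 or less, and the mean of both gave -0.21. Without control 2 the difference was 0.18 and without control 1 it was 0.85. Pmvk, the next kinase, read 581.1 and 815.8 on controls 1 and 2, against 797.0 and 1209 on TCDD 1 and 2. It was higher after TCDD within each preparation, by log2 ratios of 0.46 and 0.57 (fitted 0.51 ± 0.34). TCDD 1 lay below control 2, so the groups overlapped. With an array left out, and so without the preparation term, the Pmvk difference ranged from 0.21 to 0.81. Mvd, which decarboxylates mevalonate diphosphate, read 590.9 (control 1), 547.5 (TCDD 1), 552.4 (control 2) and 702.4 (TCDD 2), a difference of 0.12 ± 0.35.

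Idi1, the isomerase that makes dimethylallyl diphosphate, read 6007 and 3824 on controls 1 and 2, against 4592 and 6696 on TCDD 1 and 2. Here too control 1 and TCDD 2 were high, and the log2 ratios were -0.39 and 0.81. A further probe set gave the same order, at 4896 and 5314 on control 1 and TCDD 2 and 4153 and 2396 on TCDD 1 and control 2. Fdps, farnesyl diphosphate synthase, read 199.6 and 351.5 on controls 1 and 2, against 491.4 and 550.1 on TCDD 1 and 2. Both TCDD arrays were above both controls, and its difference of 0.97 ± 0.35 was the largest of the 30 genes (limma, unadjusted p = 0.0232, adjusted p = 0.9999). It was 1.38 without control 2, the array with conflicting labels (limma, adjusted p = 0.0217), and 0.56 without control 1. That fit without control 2 compares both TCDD arrays with control 1 alone, whose 3′ to 5′ ratio was highest, and it called 285 probe sets in all. A further Fdps probe set was near background, at 16.2 or less, and the mean of both gave -0.034.

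The 3 enzymes from farnesyl diphosphate to lanosterol all had the common order in their brightest probe sets. Fdft1, squalene synthase, read 1861 (control 1), 1075 (TCDD 1), 848 (control 2) and 2507 (TCDD 2). The log2 ratios were -0.79 where no site is named and 1.56 in back skin, and the fitted difference was 0.39 ± 0.53. Its probe sets disagreed: another, which read 357.7, 428.1, 403.3 and 929.6 in the same order of arrays, was higher after TCDD in both preparations (0.73), and a further tested one differed by -0.22. The brightest probe set of Fdft1 carries the suffix that marks probes shared with other transcripts, so its level is uncertain.

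Sqle, squalene epoxidase, which catalyses an oxygen-requiring step, read 3402 (control 1), 1955 (TCDD 1), 1435 (control 2) and 1596 (TCDD 2). Control 1 stood above the other 3 arrays, and the TCDD difference was -0.32 ± 0.37. Without control 1 it was 0.30. Lss, lanosterol synthase, read 1126 and 1087 on control 1 and TCDD 2 and 626.7 and 751.1 on TCDD 1 and control 2, with log2 ratios of -0.85 and 0.53. Its other 2 probe sets lay below the filter.

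The later steps turn lanosterol into cholesterol. Their median log2 ratio was -0.07 where no site is named and 0.11 in back skin over 7 tested genes. Cyp51, the lanosterol demethylase, was the member of this group that followed the earlier enzymes most clearly, at 1015 (control 1), 590.5 (TCDD 1), 560.4 (control 2) and 696 (TCDD 2). Its second tested probe set was high on the same 2 arrays, at 576.6 and 640.8 against 404.9 and 328.2. Msmo1, a sterol methyl oxidase, stayed between 256 and 296.9 and Nsdhl, a sterol dehydrogenase, between 1013 and 1357. Tm7sf2, a sterol reductase, read 297.1 to 435.9 and Sc5d, the sterol desaturase, 507.5 to 561.5. A second Sc5d probe set differed by -0.55, with 259.6 and 284.6 in controls against 178.5 and 194.2 in TCDD-treated samples, without passing the test.

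Hsd17b7, a ketoreductase of sterol synthesis, read 449.3 and 438.9 on controls 1 and 2, against 561.1 and 596.6 on TCDD 1 and 2. The groups did not overlap, and the difference of 0.38 ± 0.34 was about the size of its standard error. A second tested Hsd17b7 probe set overlapped, at 158.9 and 213.3 in controls and 233.4 and 192.5 in TCDD samples, and was lower after TCDD in back skin. Ebp, the sterol isomerase, read 736.2 on control 1 and 1181, 1437 and 1262 on the other arrays (TCDD 1, control 2, TCDD 2). It was low on control 1 alone, with log2 ratios of 0.68 and -0.19, which is the reverse of the common order. Dhcr7, which makes cholesterol from its last precursor, was below the filter and not tested, at 158.6 (control 1), 67.6 (TCDD 1), 18.1 (control 2) and 146.7 (TCDD 2). Its order was the common one, but 18.1 lay under the 20th percentile of control 2 (40.6), so no fold is given.

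Among the regulators, Srebf1, which encodes SREBP-1, read 1168 and 982.4 on controls 1 and 2, against 1053 and 1257 on TCDD 1 and 2, a difference of 0.10 ± 0.35. Srebf2, which encodes SREBP-2, the main activator of cholesterol synthesis, read 513 and 361.4 in controls, against 404.3 and 461.9 in TCDD samples (0.01 ± 0.36). Both followed the common order over the 4 arrays, in narrower ranges. A further Srebf2 probe set did not: it read 213.2 on control 1 and 562.5, 631.6 and 415.9 on the other arrays (TCDD 1, control 2, TCDD 2), with log2 ratios of 1.40 and -0.60. The 2 probe sets of Srebf2 thus pointed in opposite directions within each preparation.

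Scap, the escort of the SREBPs, read 313.3 and 226.6 on controls 1 and 2, against 386 and 287.1 on TCDD 1 and 2. It was higher after TCDD by a like amount in both preparations (0.30 and 0.34), which gave 0.32 ± 0.34. On both treatments it was lower in back skin than in the other preparation. The fits without control 2 (0.088) and without TCDD 1 (0.11) hold no preparation term, so this difference between preparations enters them. Insig2, the sterol-sensing anchor of SCAP, read 753.4 and 714.9 in controls, against 763.6 and 480.5 in TCDD samples. TCDD 2 alone was low, and a further probe set showed the same (525.7 and 488.7 in controls, 488.1 and 323.1 in TCDD samples). Its remaining probe set differed by 0.10, so the probe sets of Insig2 did not share a sign.

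Of the enzymes that supply acetyl-CoA and build fatty acids, Acly, ATP citrate lyase, read 6531 (control 1), 3826 (TCDD 1), 4179 (control 2) and 5357 (TCDD 2). The log2 ratios were -0.77 and 0.36. A dimmer tested Acly probe set, without the suffix for shared probes, gave ratios of the same signs but smaller, -0.21 and 0.24. Acss2, acetyl-CoA synthetase, read 270.7 and 301.1 in controls, against 293 and 369 in TCDD samples (0.20 ± 0.34, and 0.037 without TCDD 2). Acaca, acetyl-CoA carboxylase, read 122.1 and 153.7 in controls, against 109.4 and 133.4 in TCDD samples (-0.18 ± 0.45), the dimmest gene that passed the filter, with a mean log2 signal of 7.01. Fasn, fatty acid synthase, was the brightest gene that failed it, at 6.70. Fasn read 128.6 (control 1), 71 (TCDD 1), 41 (control 2) and 314.2 (TCDD 2), in the common order, and was not tested.

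Among the 30 tested genes the widest spread between arrays was seen in Scd2, a stearoyl-CoA desaturase. It read 1359 (control 1), 881.6 (TCDD 1), 443.4 (control 2) and 1478 (TCDD 2). The log2 ratios were -0.62 and 1.74, and the fitted difference of 0.56 ± 0.53 had a 95% interval from -0.64 to 1.76. Scd1, its close relative, differed little between arrays, at 260.2 and 249.8 in controls, against 239.4 and 266.9 in TCDD samples (-0.01 ± 0.35). The other 2 probe sets of Scd2 lay below the filter and did not share the order of the brightest.

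Fads2, the delta-6 desaturase of polyunsaturated fatty acids, read 187.6 and 125.8 on controls 1 and 2, against 245.1 and 214.5 on TCDD 1 and 2. Both TCDD arrays were above both controls (0.58 ± 0.39, and 0.29 without control 2). Its other probe set overlapped, at 173.4 and 124.6 in controls and 169.5 and 228.3 in TCDD samples (0.42). Fads1, the delta-5 desaturase, read 344.5 to 438.8 and Elovl5, an elongase of polyunsaturated fatty acids, 4828 to 5855, both in the common order. Elovl6, which lengthens saturated fatty acids, read 586.1 and 515.8 in controls, against 485.7 and 489.2 in TCDD samples, which put both TCDD arrays below both controls by a small step (-0.17 ± 0.34). A second tested Elovl6 probe set overlapped and had the reverse of the common order, and a second Elovl5 probe set was higher after TCDD in both preparations. Stard4, a carrier of cholesterol between membranes, stood out on TCDD 2 alone, at 1338 against 957 to 999.9 on the other 3 arrays. Its second probe set was low on control 2 alone, at 193.7 against 329.9 to 402.8.

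The probe sets of a gene often disagreed. Of 15 members with 2 or more tested probe sets, 9 had the same sign of the TCDD difference in all of them and 7 the same signs within both preparations. The latter were Mvd, Idi1, Cyp51, Sc5d, Acly, Acss2 and Stard4. Representing each gene by the mean of its probe sets left 13 of 30 in the common order, against 23.2% of all genes. Leaving out probe sets with the suffixes for shared probes left 14 of 29, against 26.0%.

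Other genes of lipid handling were taken from 4 lists outside the 34. In each of them 0 genes passed the test. Of 9 tested sterol genes that are not members, 4 were lower with no site named and higher in back skin (27.9% of all genes). A further 3 were the reverse (31.3%) and 2 were higher in both (17.9%). Fdx1, which passes electrons to mitochondrial sterol hydroxylases, read 1142 and 649.3 in controls, against 1444 and 1297 in TCDD samples (0.67 ± 0.36). Ggps1, geranylgeranyl diphosphate synthase, was low on control 1 alone (436, against 689.1 to 934.8 on the others), and Cyp27a1, the sterol 27-hydroxylase, had the common order, at 334.9 (control 1), 211.8 (TCDD 1), 136.1 (control 2) and 392.4 (TCDD 2).

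Of 14 tested genes of cholesterol uptake, storage and efflux, 9 had the reverse of the common order, against 31.3% of all genes. Of the others, 3 were higher after TCDD in both preparations (17.9% of all genes), 2 were lower in both (22.8%) and 0 had the common order (27.9%). In 8 of the 14, control 1 and TCDD 2 were both below TCDD 1 and control 2, against 21.8% of all genes. Quantile normalization gave 7 and 7 in place of 9 and 8, with 25.5% of all genes in the reverse order. Centring on the median gave 6 and 6, with 1 gene in the common order; 21.1% of all genes then had the reverse order, and 14.1% of all genes then had control 1 and TCDD 2 below the other arrays. Abca1, which exports cholesterol, read 384.8 and 382.5 on control 1 and TCDD 2 and 692.5 and 699.6 on TCDD 1 and control 2. Mylip, a ubiquitin ligase for lipoprotein receptors, read 373.2 and 435 on control 1 and TCDD 2 and 766.4 and 676.6 on TCDD 1 and control 2. Both were named after their values were seen.

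By the size of the TCDD difference, the uptake and efflux list was headed by Msr1, a scavenger receptor, which read 24.1 on control 1 and between 197.9 and 216.7 on the other arrays. The value on control 1 lay under the 20th percentile of that array (36.6), so its fold is not exact. Nr1h3, which encodes the oxysterol receptor LXR alpha, stood out on control 2 alone, at 339.8 against 139.8 to 152.2 (-0.68 ± 0.44). Scarb1, the receptor for high-density lipoprotein, read 114.8 and 123.8 in controls, against 164.6 and 147.2 in TCDD samples (0.38 ± 0.44).

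**Figure D4:**
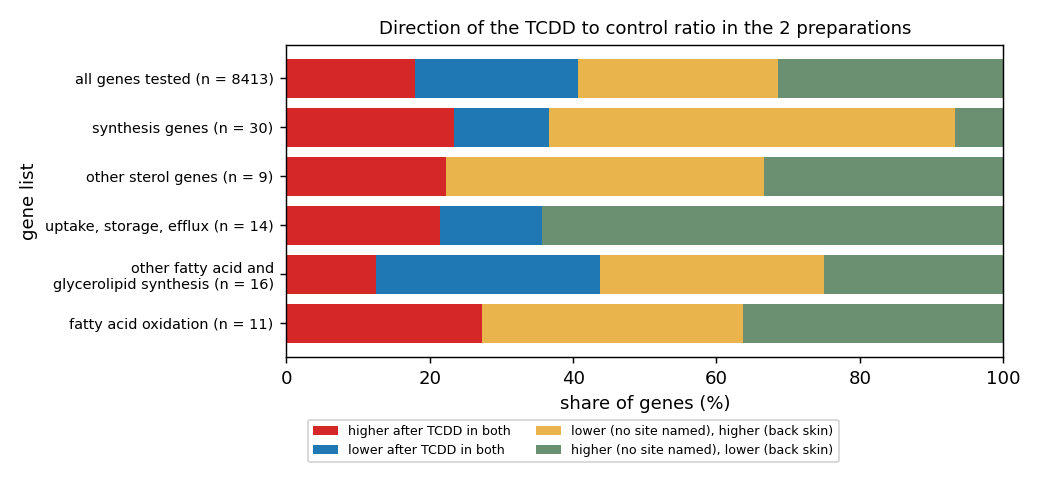
Bars give the share of genes in percent with each combination of signs of the TCDD to control ratio in the 2 preparations, for all genes tested, the 30 synthesis genes and 4 further lipid lists. The share in the common order is 17 of 30 for the synthesis genes, 0 of 14 for uptake, storage and efflux and 27.9% for all genes.

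The second comparison set the back skin arrays against the other preparation, with treatment in the fit. Again 0 of the 49 member probe sets passed (limma, smallest adjusted p = 0.9994), with 0 at an unadjusted p under 0.05. Of all probe sets 0.0% passed, and 2.02% had an unadjusted p under 0.05. The median log2 difference, back skin minus no site named, was 0.02 over the 30 genes and 0.005 over all genes tested. This near-zero median joined opposite parts: control 2 over control 1 gave a median of -0.19 and TCDD 2 over TCDD 1 gave 0.26, where all genes gave 0.02 and -0.01. The genes furthest from 0 were Sqle (-0.77 ± 0.37), Pmvk (0.55 ± 0.34), Ebp (0.53 ± 0.37), Fdps (0.49 ± 0.35), Scap (-0.45 ± 0.34) and Scd2 (-0.43 ± 0.53). Of these, Pmvk and Scap kept nearly the same site ratio in control and TCDD (0.49 and 0.60, and -0.47 and -0.43), whereas Scd2 went from -1.62 in control to 0.75 in TCDD.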

How the data were processed

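Gene expression was measured on 4 one-colour arrays, 2 control and 2 TCDD. The authors deposited 1 linear intensity value per probe set. These are MAS5 signals: affy and MAS5 appear in the submitters' processing notes, without versions. The trimmed mean of the deposited values was between 499.69 and 499.73 on all 4 arrays (2% removed at each end), so the arrays share a scale. The sources used here give no background settings or detection calls. The number of arrays limits the precision.

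Signals were taken to log2 without further normalization. Of 22690 probe sets, 64 of them controls that were left out, 13576 lay at or above the 40th percentile of mean log2 signal. They were fitted in R 4.3.3 by limma 3.58.1 with additive terms for treatment and preparation and a trended variance, and p-values were adjusted by Benjamini-Hochberg (threshold 0.05). This leaves 1 residual degree of freedom, and the script was tested on simulated data. Intervals are 95%. Array pairs follow the labelled site. Symbols come from the platform annotation, in which 20380 probe sets had 1 symbol, 691 several and 1555 none here. Probe sets with several symbols were not used.

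Members and gene lists were chosen with earlier results of these data known. Values on every array are given for members by 4 rules: the largest TCDD difference with 1 sign in both preparations (8), the largest difference between the 2 ratios (8), the largest site difference (6), and a fixed list of regulators and end enzymes. From each further lipid list 3 genes were taken by TCDD difference. Members outside these rules are given by range or values because every member is accounted for, and the markers named were chosen after their values were seen. Alternatives were 2 normalizations, 2 filters, an offset and a floor of 50, no variance trend and no preparation term. Each array was also left out in turn, in fits with the compared term alone. Further alternatives were the mean of a gene's probe sets and, added after seeing the data, no probe sets for shared transcripts. Of the marker lists, those of melanocytes, Schwann cells, fibroblasts and endothelium had summed signals of 1447 to 1911, 2268 to 3280 and 737.5 to 1162.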

Additional observations from a re-analysis of the deposited data

Results flagged for a closer look

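Several values stood out because TCDD and control were ordered one way where no site is named and the other way in back skin, by at least 0.5 log2 units in each. The difference between the 2 log2 ratios (back skin minus no site named) was 2.36 for Scd2, 2.36 for Fdft1, 1.38 for Lss and 1.13 for Hmgcs1. Over the 30 tested synthesis genes its median was 0.37, against -0.05 over all genes tested. Each preparation holds 1 array per treatment, so none of these differences was tested. The values for Scd2, Fdft1, Lss and Hmgcs1 come from the brightest probe set of each, and those of Fdft1 and Lss carry suffixes for shared probes. Other probe sets differed. Those of Hmgcs1 gave 0.37, 0.29 and 0.06, and the other tested ones of Fdft1 gave 0.95 and -1.08. Below the filter, those of Scd2 gave -0.81 and -0.83 and those of Lss 0.18 and 0.45.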

How the results depend on the processing

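The count of probe sets past the test for TCDD was 0 with all 4 arrays, under both normalizations, both filters, the offset, the floor, no variance trend and no preparation term (the fit without a replicate block), and ranged from 0 to 285 when an array was left out: 12 without control 1 and 285 without control 2, where Fdps was the 1 member called. For back skin it was 0 under the same settings and ranged from 0 to 89 with an array left out (89 without TCDD 1, no member among them). Such fits leave a lone array in a group, which is assumed to vary like the others. They also drop the other term of the fit, preparation for TCDD and treatment for back skin. The genes with the reverse of the common order (Ebp and Insig2) numbered 2, but 1 under quantile normalization, 1 under median centring and 4 with the mean of probe sets.

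Of 282 refits for 22 named members, 252 kept the direction and the side of the threshold, 1 newly passed and 29 changed sign, 22 of them with an array left out and 7 under other settings; where nothing else is said the cause was not tested. The sign turned under quantile normalization for Hmgcs1 (0.0041) and Srebf2 (-0.0015). It turned with the mean of probe sets for Hmgcs1 (0.059), Mvk (-0.21), Fdps (-0.034) and Cyp51 (0.050), where for Mvk, Fdps and Cyp51 the mean takes in a probe set below the filter. It turned without shared probes for Acly (0.015). The fits with an array left out hold no preparation term, so the ranges below also take in the difference between preparations. With an array left out the TCDD difference ranged from -0.33 to 0.28 for Hmgcs1, -0.12 to 0.54 for Idi1, -0.22 to 0.997 for Fdft1, -0.95 to 0.30 for Sqle, -0.55 to 0.24 for Lss, -0.66 to 0.19 for Cyp51, -0.24 to 0.73 for Ebp, -0.025 to 0.23 for Srebf1, -0.25 to 0.26 for Srebf2, -0.61 to 0.057 for Insig2, -0.53 to 0.12 for Acly, -0.091 to 0.066 for Scd1, -0.25 to 1.36 for Scd2 and -0.054 to 0.43 for Stard4. The sign held, but the range was wide, for Mvk (0.18 to 0.85), Pmvk (0.21 to 0.81), Fdps (0.56 to 1.38), Scap (0.088 to 0.55), Acss2 (0.037 to 0.37), Acaca (-0.35 to -0.015) and Fads2 (0.29 to 0.87); for Hsd17b7 it was 0.34 to 0.43. Signals near background limit Dhcr7 and Fasn, which were not tested.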

Other observations

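Of 16 tested genes of other fatty acid and glycerolipid synthesis, 5 were lower with no site named and higher in back skin (27.9% of all genes). A further 4 were the reverse (31.3%), 5 lower in both (22.8%) and 2 higher in both (17.9%). Oxsm, a ketoacyl synthase of mitochondrial fatty acid synthesis, read 265.6 and 179.4 in controls, against 172.5 and 99.5 in TCDD samples (-0.74 ± 0.40). Lpin1, a phosphatidate phosphatase, read 232.4 and 352.2 in controls, against 141.9 and 261.3 in TCDD samples (-0.57 ± 0.36). Tecr, a reductase of very long chain fatty acid synthesis, stood out on TCDD 2 alone, at 917.9 against 507.4 to 554.3.

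Of 11 tested genes of fatty acid oxidation, 4 were lower with no site named and higher in back skin (27.9% of all genes). A further 4 were the reverse (31.3%), 3 higher in both (17.9%) and 0 lower in both (22.8%). Cpt1a, which admits long-chain fatty acids to the mitochondrion, read 222.4 and 213 in controls, against 290.5 and 354.5 in TCDD samples (0.56 ± 0.35). Acadm, the medium-chain dehydrogenase, was low on TCDD 2 alone, at 2058 against 3393 to 3428. Slc25a20, the carnitine carrier of mitochondria, was low on control 1 alone, at 1024 against 1561 to 1749. None of these genes passed the test (limma, adjusted p = 0.9999).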
